A study of Mus musculus with 19 samples.

Results

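The 536 regions described here are places in the genome of mouse hippocampal neurons where a peak of H3K27ac was listed in both samples treated with bicuculline and 4-aminopyridine (Bic/4AP), in neither untreated sample, and where the CpGs were almost unmethylated in untreated neurons. Each is a peak of the second Bic/4AP list, of 55035 in all, that shared at least 1 bp with a peak of the first Bic/4AP list and none with a peak of the 2 untreated lists. It also held at least 3 CpGs with a value in all 3 methylation libraries, with an untreated mean below 0.20. The regions were thus chosen by the H3K27ac lists and by the untreated methylation values, and those values are given below as a description, with no test.

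Hippocampal neurons of embryonic day 17 were kept for 10 days in culture. The strain was ICR for RNA and chromatin and C57BL/6 for methylation, which was therefore not read in the same animals as the other measures. Neurons were left untreated, given tetrodotoxin (TTX, which blocks voltage-gated sodium channels and silences firing) for a time that the labels do not give, or given Bic/4AP for 3 h, in which a GABA-A receptor antagonist and a potassium channel blocker together raise firing. RNA was measured in 3 libraries of each treatment, CpG methylation in 1 library of each, H3K27ac in 2 untreated and 2 Bic/4AP samples, and H3K4me1 in 2 untreated samples. Whether the 3 RNA libraries of a treatment are separate cultures is not stated, and p-values therefore describe the spread among these libraries, part of which may be technical.

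Acetylation of lysine 27 of histone H3 marks promoters and enhancers in use, and it is written by the acetyltransferases CBP and p300 that activity-regulated factors such as CREB recruit. H3K4me1 is found mainly at enhancers and is low at the core of active promoters, where H3K4me3 takes its place. CpG islands are stretches rich in CpG and in G and C that lie at the starts of most broadly expressed genes and stay free of methylation in nearly all cells, while CpGs elsewhere in a mammalian genome are mostly methylated. In neurons, firing opens calcium channels, and calcium signals to the nucleus switch on rapid genes such as Fos, Egr1 and Npas4 within minutes and late genes hours afterwards.

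To show what the start of a gene with such a region looks like, the 250 bases before the annotated start are printed for 8 nearest genes of gained regions, 5 with large rises and 3 with large falls of RNA, in all of which the start lies inside the region. The sequences are RefSeq's (GRCm38.p6), 5′ to 3′ on the strand of the gene, and capitals mark the CpG dinucleotides. The selection used the CpGs inside the region that all 3 methylation libraries listed. Parts of some windows, such as much of that of Zbtb17, lie outside the region and played no part in it.
Gpr3 (chr4:133212537-133212786, minus strand): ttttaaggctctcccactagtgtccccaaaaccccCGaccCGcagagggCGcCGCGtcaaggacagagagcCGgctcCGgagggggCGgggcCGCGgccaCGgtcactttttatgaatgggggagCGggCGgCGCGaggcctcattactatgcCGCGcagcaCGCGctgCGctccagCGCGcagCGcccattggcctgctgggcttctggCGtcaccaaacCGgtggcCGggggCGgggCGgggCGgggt
Nedd9 (chr13:41359002-41359251, minus strand): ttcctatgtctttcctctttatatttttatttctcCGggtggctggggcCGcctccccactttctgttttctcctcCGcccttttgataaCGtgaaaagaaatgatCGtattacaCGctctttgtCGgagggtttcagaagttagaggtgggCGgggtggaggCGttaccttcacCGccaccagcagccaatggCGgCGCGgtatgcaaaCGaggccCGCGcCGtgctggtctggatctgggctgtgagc
Rel (chr11:23770970-23771219, minus strand): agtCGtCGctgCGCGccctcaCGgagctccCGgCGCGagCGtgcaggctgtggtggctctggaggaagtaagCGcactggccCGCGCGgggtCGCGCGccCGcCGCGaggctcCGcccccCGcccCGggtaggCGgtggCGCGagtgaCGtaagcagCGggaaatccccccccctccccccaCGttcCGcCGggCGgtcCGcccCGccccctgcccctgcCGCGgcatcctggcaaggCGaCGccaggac
Htr2a (chr14:74640624-74640873, plus strand): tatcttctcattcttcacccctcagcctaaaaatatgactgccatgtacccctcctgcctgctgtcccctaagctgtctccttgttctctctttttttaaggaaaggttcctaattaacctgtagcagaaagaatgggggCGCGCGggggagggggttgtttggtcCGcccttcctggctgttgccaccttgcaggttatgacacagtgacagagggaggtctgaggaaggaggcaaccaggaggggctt
Srxn1 (chr2:152105274-152105523, plus strand): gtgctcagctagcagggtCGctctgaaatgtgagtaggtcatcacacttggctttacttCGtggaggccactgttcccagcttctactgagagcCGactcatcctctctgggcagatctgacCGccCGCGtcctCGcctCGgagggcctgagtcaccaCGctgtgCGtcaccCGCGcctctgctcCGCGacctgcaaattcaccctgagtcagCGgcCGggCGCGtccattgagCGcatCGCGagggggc
Myo9b (chr8:71272464-71272713, plus strand): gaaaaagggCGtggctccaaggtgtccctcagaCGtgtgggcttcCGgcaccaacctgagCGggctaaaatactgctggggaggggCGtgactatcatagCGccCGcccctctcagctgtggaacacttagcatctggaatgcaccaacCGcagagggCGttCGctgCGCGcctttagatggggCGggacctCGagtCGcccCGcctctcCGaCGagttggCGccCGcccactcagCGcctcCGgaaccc
Zbtb17 (chr4:141444423-141444672, plus strand): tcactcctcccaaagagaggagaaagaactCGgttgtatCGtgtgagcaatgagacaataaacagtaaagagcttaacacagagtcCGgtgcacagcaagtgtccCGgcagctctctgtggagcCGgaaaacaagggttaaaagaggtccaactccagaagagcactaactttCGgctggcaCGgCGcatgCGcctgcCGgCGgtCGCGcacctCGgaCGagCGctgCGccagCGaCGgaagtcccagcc
Syne1 (chr10:5550693-5550942, minus strand): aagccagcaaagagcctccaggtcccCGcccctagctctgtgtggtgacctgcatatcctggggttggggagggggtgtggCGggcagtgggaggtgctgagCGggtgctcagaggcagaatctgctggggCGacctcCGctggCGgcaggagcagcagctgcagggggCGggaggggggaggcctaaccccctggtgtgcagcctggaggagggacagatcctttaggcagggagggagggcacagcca
Rel, with 37 CpGs in these 250 bases, and Gpr3, with 29, are dense in CpG, and Htr2a, with 4, and Syne1, with 7, are not. Of the Rel CpGs, 25 had a value in all 3 methylation libraries, with means of 0.005 in untreated neurons, 0.00267 after TTX and 0.00641 after Bic/4AP. The 4 CpGs of Htr2a averaged 0.031 untreated, 0.0312 with TTX and 0 with Bic/4AP, and the 7 of Syne1 averaged 0.0391, 0.0459 and 0.0574. These windows were nearly unmethylated in genes with rising and with falling RNA alike. The choice of regions by low methylation had largely fixed this beforehand, so it is no result about direction.

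Replication between the H3K27ac samples was limited by how many peaks each list held. The untreated lists held 4846 and 49701 peaks and the Bic/4AP lists 7721 and 55035, in the order of first and second sample. Of the 55035 peaks, 6746 overlapped the first Bic/4AP list. Of those, 2554 also overlapped the first untreated list and 5679 the second, which left 1009 in neither. A peak missing from a list is one that was not called there, at the authors' score of 50 or more that every listed peak has, and no signal below that score was used here. Conversely, 134 peaks of the second untreated list overlapped the first untreated list and neither Bic/4AP list.

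Untreated methylation divided the 1009 gains into a low and a high group with few between. For 975 of them at least 3 CpGs could be averaged, and 34 had fewer. Of the 975, 536 (55.0%) were below 0.20 and form the set described here, 108 lay from 0.20 to below 0.60, and 331 were at 0.60 or more. Within the 536, 388 were below 0.05, including 2 at 0, and 58 lay between 0.10 and 0.20. The regions just inside the limit were those nearest to Dhx8 (0.193), Cabp1 (0.197) and Rslcan18 (0.198), and those just outside were nearest to Cacng4 (0.204), Tapt1 (0.205) and Gm34997 (0.210).

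**Figure D1:**
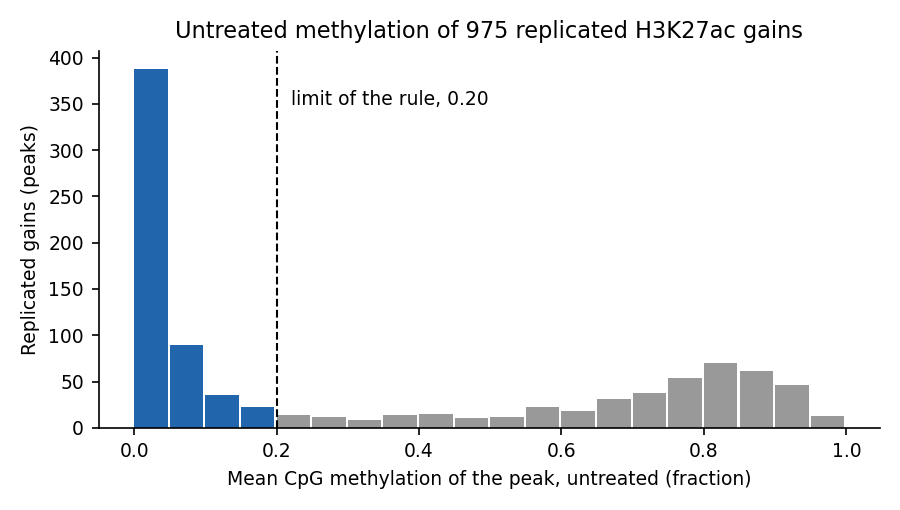
Number of replicated H3K27ac gains (y axis) by their mean CpG methylation in untreated neurons (x axis, fraction, bins of 0.05), for the 975 gains with at least 3 CpGs. The blue bars left of the dashed line at 0.20 are the 536 regions described here, 388 of which are in the first bin, and the grey bars are the 439 other gains.

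Most gained regions lay at promoters. A transcription start lay within 1 kb of the peak's edges or inside it for 498 of 536 (92.9%, 95% exact binomial interval 90.4 to 94.9). Of the others, 25 lay elsewhere inside a gene and 13 between genes. Here and below, a coding gene without an annotated start was counted with both its ends, although only 1 of them is its start. A start of known strand lay within 1 kb of 426 regions. The nearest start was inside the peak for 388 (72.4%). For 447 regions the strand of the nearest start was known: the peak's centre was downstream of it, on the side of the gene body, for 342 and upstream for 105, with a median of 330 bp downstream and a 25th to 75th percentile range of 29.5 to 586.5 bp downstream. The other 89 have a nearest gene for which only the 2 ends were used, without strand. The starts of at least 2 genes lay within 1 kb of 127 regions, and for 108 of these there were starts on both strands. The order of these starts was not checked, so not all need be divergent promoters.

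**Figure D2:**
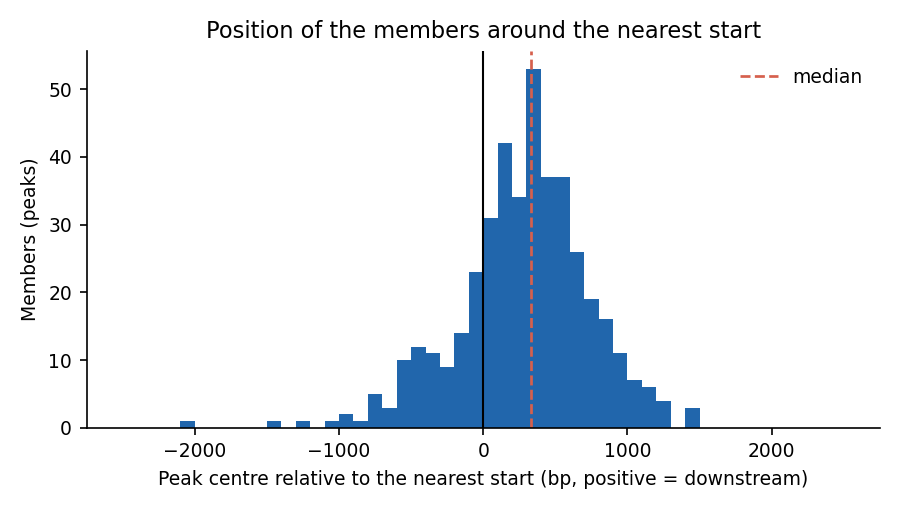
Number of gained regions (y axis) by the position of the peak's centre relative to the nearest transcription start (x axis, bp, positive values downstream), for regions whose nearest start has a known strand and lies within 2500 bp. The dashed line is the median over all 447, 330 bp downstream, and the bulk of the bars lie on the downstream side.

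The regions were rich in CpG. Widths ran from 403 to 7191 bp with a median of 1199 bp (95% interval 1125 to 1266), against 998 bp over the whole second Bic/4AP list, and 191 were under 1 kb and 18 were over 3 kb. Each held 7 to 187 CpGs with values, with a median of 61, or 48.5 per kb. The authors' score in the second Bic/4AP list had a median of 246, against 143 over that whole list, and in the first Bic/4AP list the peaks they overlapped had a median of 72.4 against 78.5. The regions lay on 19 autosomes and on the X chromosome, which held 13. Their distance to the nearest untreated H3K27ac peak of either list had a median of 34834 bp, 203 had none within 50 kb, and 32 (5.97%) had one within 1 kb without touching it, so that most stood alone rather than at the edge of a peak already listed.

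The other replicated gains and the promoters acetylated in all samples differed from the regions in different ways. The 439 gains at 0.20 or more were wider (median 1628 bp), held a median of 13 CpGs, and 7.06% of them were within 1 kb of a start. The 1591 peaks that overlapped all 3 other H3K27ac lists and were below 0.20 were also at starts (91.7%), but had a median width of 2535 bp and a median of 97 CpGs, or 38.6 per kb, with an untreated methylation of 0.0387 against 0.0208 in the gained regions. These are descriptions of single peak lists, in which peaks are not replicates, and no test was made of them.

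H3K4me1, measured in untreated neurons alone and not used in the choice, was nearly absent. None of the 536 regions overlapped a peak in both H3K4me1 lists, where a count of 0 allows a share of up to 0.56% (3 counts of the total) and the exact 95% binomial interval reaches 0.686%, and 4 (0.746%) overlapped one in either list. The same shares were 4.49% and 13.4% over all peaks of the second Bic/4AP list, 1.82% and 9.34% for the gains at 0.20 or more, and 1.82% and 6.29% for the low-methylation peaks in all 4 lists. The 4 regions with H3K4me1 were nearest to Senp5, Prkab2 and Trpc4ap, all 3 at starts, and to Uck2, inside the gene 15195 bp from the start. Lists of 21512 and 19102 H3K4me1 peaks were searched. Of the 38 regions not within 1 kb of a start, which had a median of 36.5 CpGs and an untreated methylation of 0.068, 1 overlapped H3K4me1.

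Of the regions, 5 pairs of neighbours shared a nearest gene, and 531 genes were nearest to the 536 regions, 497 of them coding for protein and 34 for long noncoding RNA. The genes with 2 regions were Sik2, which encodes a salt-inducible kinase, Glrb, the beta subunit of the glycine receptor, Slc25a36, a mitochondrial pyrimidine nucleotide carrier, Casd1, a sialic acid acetyltransferase, and Utp3, a factor of ribosome making. At Sik2 the peaks spanned chr9:51007022-51009094 and chr9:51009097-51011013, with scores of 1102 and 342, 108 and 45 CpGs, and untreated methylation of 0.0113 and 0.0669. No gene had 3 or more.

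Short sequence motifs around the starts were counted in RefSeq's windows of 300 bases, 250 before to 50 after a start, on both strands, for 438 windows of 386 genes whose start lay inside a gained region. The windows held a median of 24.5 CpGs, against 25 in 1721 windows of the low-methylation peaks in all 4 lists and 7 in all 32851 windows. The GC box GGGCGG, which SP factors bind, was present in 68.95% of the windows, against 65.37% and 35.66% in those sets. The ETS core CCGGAAG was present in 26.94% against 15.86% and 8.858%, and the palindromic NRF1 site in 2.968% against 2.615% and 0.9711%. The full cAMP response element TGACGTCA, which CREB binds, was present in 27 windows (6.164%), against 4.648% and 1.79%. The AP-1 site TGANTCA was present in 3.653% against 3.486% and 7.808%, TATAAA in 6.849% against 5.985% and 13.62%, CCAAT in 34.47% against 30.97% and 37.41%, and the serum response element by its CArG box in 2.283% against 1.278% and 1.629%. GC-rich motifs were thus more frequent, and the AP-1 and TATA motifs less frequent, than over all starts. Against the promoters with peaks in all 4 lists, the ETS core differed most in percentage points. For rare motifs such as the CArG box, a small gap in points can be large in proportion. Some motifs can share letters, and a match is a description, not a bound site.

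CpG methylation of the regions differed little between the 3 treatments, each measured in 1 library, without coverage, so that depth is unknown and no test was possible. Medians over the 536 regions were 0.0208 in untreated neurons, 0.0215 after TTX and 0.01997 after Bic/4AP. The median difference from untreated was 0.000109 with Bic/4AP (95% interval over regions -0.000713 to 0.00101) and 0.000309 with TTX (-0.000256 to 0.000804). These intervals take regions as the units and leave out the variation between libraries, so they do not measure an effect of treatment. Bic/4AP was higher in 273 regions, lower in 262 and equal in 1. The untreated values entered the choice of the regions and the values of the other 2 libraries did not. Over the whole genome, the 15.01 M CpGs that all 3 libraries listed had levels of 0.737 in untreated neurons and with TTX, and 0.736 after Bic/4AP.

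Differences beyond 0.05 were few and most were on the X chromosome. With Bic/4AP 9 regions differed from untreated by more than 0.05, 8 of them among the 13 on the X, 7 of which were higher. With TTX 7 did, 5 of them on the X. For Ftsj1, an RNA methyltransferase gene, the region's 22 CpGs averaged 0.0615 untreated, 0.00739 with TTX and 0.149 with Bic/4AP. For Pgk1, a glycolytic enzyme gene, 23 CpGs averaged 0.0627, 0.111 and 0.148, and for Cstf2, a gene of mRNA 3′ end processing, 21 CpGs averaged 0.0597, 0.0693 and 0.147. At Pgrmc1 58 CpGs went the other way, with 0.167, 0.115 and 0.0923. The labels do not give the sex of the embryos, and its part in the X values was not tested. Of the 523 autosomal regions, 3 differed by more than 0.05 with either treatment, nearest to Nodal, Tvp23b and Gucy1a1, all 3 lower than untreated. Genes in this paragraph were picked after their values were seen.

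**Figure D3:**
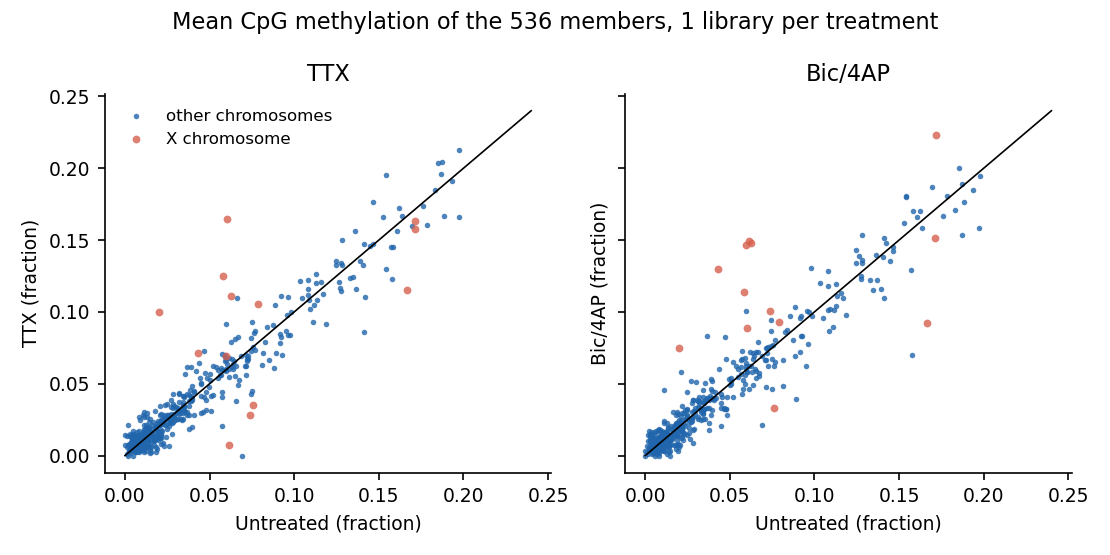
Mean CpG methylation of each of the 536 regions with TTX (left, y axis) and with Bic/4AP (right, y axis) against untreated (x axes, fraction), with 1 library per treatment and the line of equal values. Autosomal regions lie close to the line, and 8 of the 13 X-linked regions (red) differ from it by more than 0.05 with Bic/4AP.

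RNA of the nearest genes was measured independently of the choice of regions. Levels are RPKM, read numbers divided by gene length and library size, as deposited. Changes are on the log2(RPKM + 1) scale, which understates changes of low genes, with p-values from limma over 14801 genes and 9 libraries and Benjamini-Hochberg adjustment, at a threshold of 0.05. Of the 531 nearest genes, 501 had a row in the RNA tables and 492 passed the filter of 1 RPKM in at least 3 libraries, while 9 did not. The libraries, whose sizes were recovered from the steps of the values, held 5.62 to 9.96 M reads untreated, 9.66 to 12.6 M with TTX and 4.33 to 4.58 M with Bic/4AP. The neuronal markers summed to 474 to 562 RPKM untreated, 444 to 498 with TTX and 719 to 746 with Bic/4AP. Of the 7, 6 rose and 1 fell in Bic/4AP against untreated. Markers of choroid plexus, an epithelium next to the hippocampus, summed to 243 to 366 RPKM untreated, 2.95 to 5.08 with TTX and 20.8 to 25.2 with Bic/4AP, and all 4 fell. Astrocyte markers summed to 48.2 to 60.3 RPKM untreated, 67.7 to 87.9 with TTX and 82.6 to 100 with Bic/4AP. Oligodendrocyte lineage markers summed to 21.6 to 27.8 untreated, 39.3 to 47.1 with TTX and 21.1 to 27.9 with Bic/4AP, and microglial markers to 5.40 to 6.31, 5.95 to 8.06 and 3.98 to 6.30. Markers of vascular and mural cells summed to 4.56 to 7.01 untreated, 16.3 to 20.3 with TTX and 5.22 to 7.38 with Bic/4AP, and their marker Cldn5 was listed at 0 in all 3 Bic/4AP libraries. The part of such other cells in the RNA results was not tested, and in bulk RNA fewer cells of a type and less RNA per cell cannot be told apart.

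As many nearest genes fell with Bic/4AP as rose. Against untreated, 191 of 492 rose (38.8%), where 29.6% of all genes tested did, and 193 fell (39.2%), where 42.5% of all did. At 2-fold or more 29 rose (5.89%), where 3.31% of all genes did, and 52 fell (10.6%), where 17.7% of all did. The median log2 change of the nearest genes was -0.00 with a 25th to 75th percentile range of -0.47 to 0.38, against a median of -0.12 and a range of -0.71 to 0.31 for all genes. Newly listed H3K27ac peaks were thus found beside RNA changes of either sign. In 184 of the rises and 184 of the falls the 3 libraries of each group did not overlap. How often this held over all genes was not counted.

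The direction followed the level of the gene, among the nearest genes as among all genes. Of 36 nearest genes at 50 RPKM or more over the 9 libraries, 36 rose, and 91.8% of all genes at that level did. From 20 to 50 RPKM, 110 of 202 rose (54.5%, against 46.5% of all) and 42 fell (20.8%, against 27.3%). From 5 to 20 RPKM, 39 of 217 rose (18%, against 16.6%) and 135 fell (62.2%, against 56.1%). Below 5 RPKM, 6 of 37 rose (16.2%, against 15.5%) and 16 fell (43.2%, against 49.3%). Nearest genes had a median of 18.99 RPKM untreated, against 13.7 for all genes tested. Median log2 changes in the bins from the lowest level up were -0.26, -0.40, 0.22 and 0.54 for nearest genes and -0.43, -0.37, 0.12 and 0.49 for all.

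**Figure D4:**
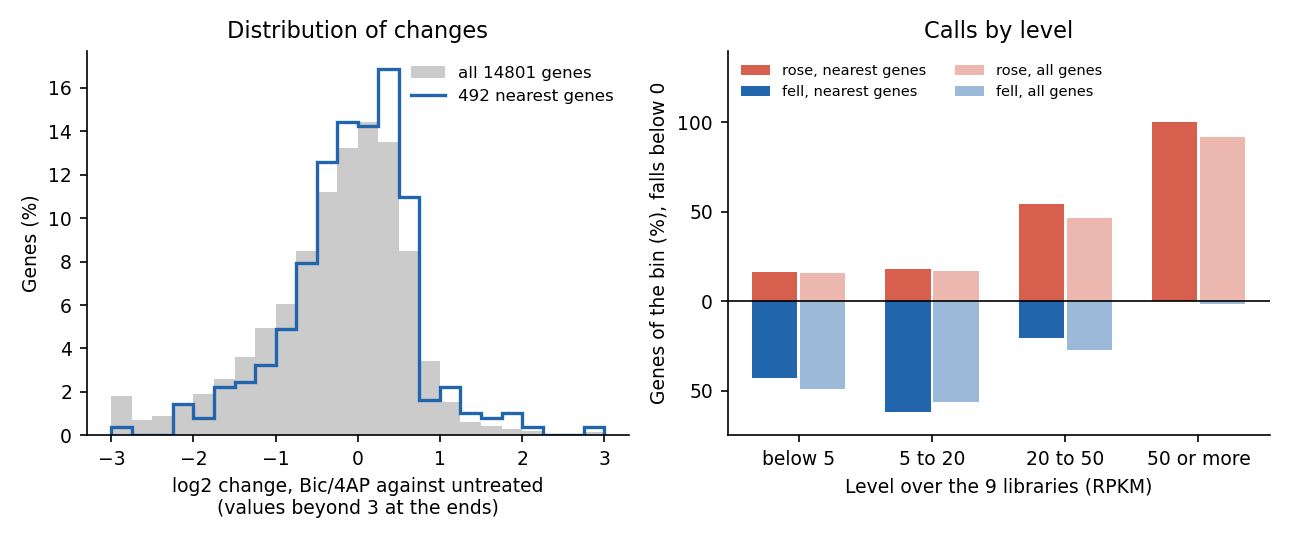
Left, share of genes (y axis, %) by log2 change of RNA in Bic/4AP against untreated (x axis) for the 492 nearest genes (blue line) and all 14801 genes (grey). Right, share of genes that rose (red, above 0) and fell (blue, below 0) by level over the 9 libraries (x axis, RPKM). Nearest genes are dark and all genes pale, with rises reaching 100% of the 36 nearest genes at 50 RPKM or more. Changes in both panels are on the deposited scale.

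The scaling of the libraries moved the balance. Quantile normalization shifted the median of all genes by 0.18, and after it 196 nearest genes rose (39.8%, against 38.8% of all genes) and 125 fell (25.4%, against 30.9%). Of these rises 141 had also risen with the deposited scale, and 113 of the falls had also fallen with it. After cyclic loess normalization 195 rose (39.6%, against 35.8%) and 141 fell (28.7%, against 35.0%). Log2 changes of single genes below are therefore given relative to the median of all genes in the same comparison. Their SE and adjusted p belong to the change before that median is subtracted, tested against 0.

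By location, nearly all tested genes had their region at a start. Of the 465 tested nearest genes of regions within 1 kb of a start, 184 rose and 183 fell in Bic/4AP against untreated. Over all genes tested, 29.6% rose and 42.5% fell. Of 20 genes with the region elsewhere in a gene, 6 rose and 7 fell, and of 7 with the region between genes, 1 rose and 3 fell, which are too few to compare. Exactly 2 genes started within 1 kb of a region and both were tested in 76 regions. Both rose in 12, both fell in 11, 1 rose and 1 fell in 13, and in the other 40 at least 1 did not pass. Pairs of neighbouring genes without a gained region were not counted, so these numbers have no background. The regions of genes that rose had a median width of 1309 bp and a median untreated methylation of 0.0161, and those of genes that fell 1100 bp and 0.0228.

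Egr1, Rel, Ell2 and Sap30 were among the nearest genes with the largest rises. Egr1, a zinc finger transcription factor of the rapid activity response, had 9.07, 16.1 and 9.75 RPKM in the untreated libraries, 21.1, 19.9 and 17.4 with TTX and 93.3, 97.9 and 112 with Bic/4AP. All 3 Bic/4AP libraries were above all 6 others, and the relative log2 change against untreated was 3.18 ± 0.16 (SE, adjusted p = 1.86e-08). Rel, a subunit of NF-κB, had 2.40, 3.69 and 2.09 RPKM untreated, 2.94, 2.91 and 1.72 with TTX and 13.4, 10.7 and 13.4 with Bic/4AP. The Bic/4AP libraries of Rel were above all 6 others, with a relative log2 change of 2.0 ± 0.20 (adjusted p = 4.10e-06). Ell2, an elongation factor of RNA polymerase II, rose from 13.1 ± 1.97 to 50.4 ± 4.39 RPKM (mean ± SD, n = 3 libraries, limma adjusted p = 1.56e-08), and Sap30, a subunit of a histone deacetylase complex, from 8.65 ± 1.00 to 31.3 ± 3.48 (adjusted p = 2.77e-08). Neither Ell2 nor Sap30 passed in TTX against untreated.

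Gpr3, Htr2a, Nedd9 and Sik1 were also among the largest rises. Gpr3, an orphan receptor that raises cyclic AMP, had 4.39, 6.78 and 3.41 RPKM untreated, 9.26, 10.4 and 10.0 with TTX and 38.2, 35.1 and 39.8 with Bic/4AP. Its groups did not overlap in any pair, and the relative log2 change was 2.88 ± 0.16 (adjusted p = 3.69e-08). Its region, chr4:133211231-133212634, held 67 CpGs at 0.0929 untreated and was centred 604 bp downstream of the start. Htr2a, the serotonin 2A receptor gene, had 3.7, 6.01 and 3.46 RPKM untreated, 5.99, 6.90 and 6.57 with TTX and 17.4, 14.5 and 17.8 with Bic/4AP. The untreated and TTX values of Htr2a overlap, and the Bic/4AP values lie above both (relative log2 change 1.85 ± 0.16, adjusted p = 1.67e-06). Nedd9, a scaffold protein of focal adhesions, was at 7.0 to 10.3 RPKM untreated, 11.0 to 13.3 with TTX and 37.4 to 38.8 with Bic/4AP (adjusted p = 2.37e-08), and its region was among the higher ranked, with a score of 908 and a width of 2800 bp. Sik1, a kinase that restrains CREB coactivators, rose from 10.9 ± 1.52 to 34.7 ± 0.758 RPKM (n = 3, limma adjusted p = 2.03e-08).

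Of 18 listed genes of MAP kinase feedback, 15 rose and 1 fell among 18 tested, and 3 were nearest genes of gained regions. Errfi1, an inhibitor of the EGF receptor, rose from 20.3 ± 2.36 to 90.8 ± 9.34 RPKM (n = 3, limma adjusted p = 4.51e-09), with TTX at 25.3 ± 0.754. Spry4, an inhibitor of receptor tyrosine kinase signalling, had 6.73, 11.0 and 5.81 RPKM untreated, 21.3, 22.3 and 20.1 with TTX and 29.0, 29.0 and 30.3 with Bic/4AP. For Spry4 both treatments were above untreated without overlap, with limma adjusted p = 7.89e-07 for Bic/4AP and 2e-05 for TTX. The region of Spry4 lay 113 bp from an untreated H3K27ac peak, and Spry4 was placed by its ends, without strand. Arhgap26, also counted within 1 kb of that region, fell in Bic/4AP against untreated. Spred3, of a related inhibitor family, was at 16.8 ± 1.24 untreated and 18.8 ± 1.21 with Bic/4AP (adjusted p = 0.0632), and did not pass. The lists were put together with earlier results of these data known, and their counts are no independent evidence of a direction.

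Other activity lists met the regions at few genes. Of 36 rapid activity genes, 31 of 35 tested rose, and Egr1 alone was nearest to a gained region. Of 33 late activity genes 28 rose, and Gpr3 and Cdkn1a, the cell cycle inhibitor p21, were nearest to regions, the latter rising from 24.5 ± 1.28 to 64.2 ± 4.59 RPKM (n = 3, limma adjusted p = 7.81e-09). None of the 34 excitatory synapse genes was a nearest gene, nor any of 21 genes of AP-1, CREB and MEF2 factors or 17 of DNA methylation and demethylation. Of 15 inhibitory synapse genes, Slc32a1, the vesicular GABA transporter, was one, with 15.1, 18.9 and 10.2 RPKM untreated, 34.7, 36.7 and 38.3 with TTX and 30.6, 31.6 and 34.0 with Bic/4AP. Slc32a1 was thus higher with both treatments than untreated. Of 22 histone acetylation genes, Kat8, an acetyltransferase of histone H4, was one and fell from 13.2 ± 0.562 to 5.31 ± 0.258 RPKM (n = 3, limma adjusted p = 1.70e-07). Its relative log2 change was -1.05 as deposited and -0.70 after quantile normalization.

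The start regions of the best known activity genes were mostly outside the set. Fos rose from 9.76 ± 2.50 to 185 ± 8.87 RPKM with an H3K27ac peak over its start in both Bic/4AP lists and in no untreated list, but an untreated peak beside the start, inside the wider Bic/4AP peak, kept it out of the set. Fosb and Arc had a peak over a start in the second Bic/4AP list alone. Junb and Npas4 had one in the second untreated list and Nr4a1 in the first, so that they could not count as gains, and Bdnf, with 7 annotated starts, had peaks in all 4 lists.

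The remaining large rises were of mixed function. Srxn1, sulfiredoxin, an antioxidant enzyme that neuronal activity is known to raise, had 22.2, 26.4 and 17.4 RPKM untreated, 35.2, 34.5 and 35.6 with TTX and 60.1, 63.6 and 64.3 with Bic/4AP. The 3 groups of Srxn1 did not overlap (adjusted p = 1.87e-07 for Bic/4AP and 0.000219 for TTX, each against untreated). Its region, chr2:152104512-152107392, held 115 CpGs at 0.161 untreated. Zdbf2, an imprinted gene, rose from 24.3 ± 2.71 to 92.8 ± 5.64 RPKM (n = 3, limma adjusted p = 4.62e-09), and Fam46a (Tent5a), of a family of noncanonical poly(A) polymerases, from 7.4 ± 1.6 to 30.8 ± 0.954 (adjusted p = 8.17e-08). Neither passed in TTX against untreated. Ankrd33b rose to 21.6 ± 1.18 from 7.07 ± 0.377 RPKM with Bic/4AP (n = 3, limma adjusted p = 6.74e-08) and fell to 5.59 ± 0.404 with TTX (adjusted p = 0.0174).

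**Figure D5:**
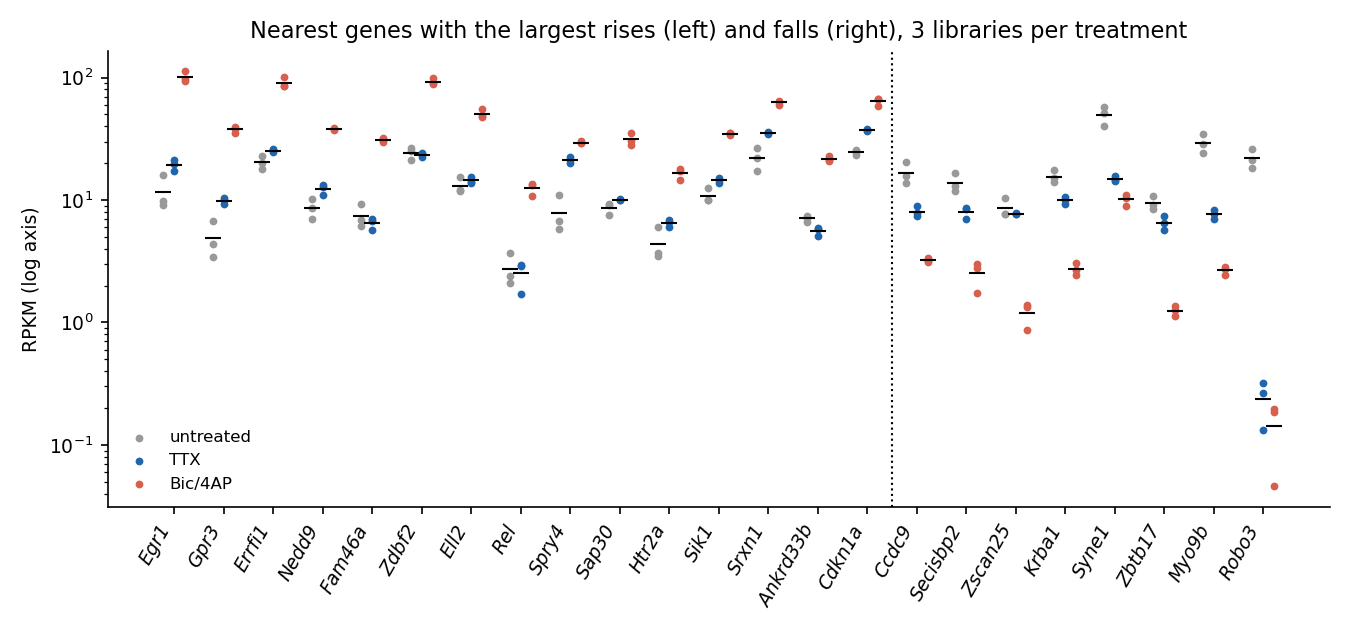
RNA level (y axis, RPKM, log axis) of the nearest genes with the 15 largest rises and the 8 largest falls in Bic/4AP against untreated (x axis), with 1 point per library, 3 libraries per treatment, and a bar at the mean. Bic/4AP points lie above both other groups left of the dotted line, and right of it the untreated points lie above the Bic/4AP points.

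Several of the nearest genes with the largest falls were also lower with TTX. Myo9b, which encodes an unconventional myosin, had 28.9, 24.3 and 34.4 RPKM untreated, 8.22, 7.70 and 6.97 with TTX and 2.42, 2.72 and 2.84 with Bic/4AP. The 3 groups did not overlap, with untreated highest (relative log2 change in Bic/4AP against untreated -2.91 ± 0.13, adjusted p = 5.81e-09). Syne1, which encodes the nuclear envelope protein nesprin-1, had 51.8, 40.2 and 57.7 RPKM untreated, 14.5, 15.7 and 14.4 with TTX and 10.5, 11.0 and 8.97 with Bic/4AP (adjusted p = 1.87e-08). Its order of groups was the same. Robo3, an axon guidance receptor, was at 18.2 to 26.3 RPKM untreated, 0.131 to 0.318 with TTX and 0.0461 to 0.195 with Bic/4AP. The region nearest to Robo3 was between genes, with its edge 25525 bp upstream of the start, and the comparison of the 2 treatments did not pass for it (adjusted p = 0.527). Of the 52 nearest genes that fell by 2-fold or more with Bic/4AP, 28 also fell with TTX, 4 of them by 2-fold or more. The same share was not counted over all genes, and both comparisons use the same untreated libraries.

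Of the other large falls, Zbtb17, the transcription factor Miz-1, had 9.16, 8.42 and 10.7 RPKM untreated, 7.34, 6.45 and 5.74 with TTX and 1.13, 1.35 and 1.28 with Bic/4AP. Its groups did not overlap (adjusted p = 6.97e-08 for Bic/4AP and 0.0112 for TTX, each against untreated). Zscan25, a zinc finger gene, fell from 8.56 ± 1.51 to 1.20 ± 0.281 RPKM with Bic/4AP (n = 3, limma adjusted p = 1.73e-07) and was at 7.72 ± 0.110 with TTX, where it did not pass. Secisbp2, which serves selenocysteine incorporation, fell from 13.9 ± 2.42 to 2.51 ± 0.675 with Bic/4AP (adjusted p = 4.69e-07) and to 8.02 ± 0.896 with TTX (adjusted p = 0.00309). Krba1 and Ccdc9 fell from 15.5 ± 1.82 and 16.6 ± 3.31 to 2.73 ± 0.310 and 3.24 ± 0.135 RPKM with Bic/4AP, and to 9.93 ± 0.637 and 8.05 ± 0.756 with TTX (limma adjusted p = 0.0011 and 0.0001).

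The 10 regions with the highest authors' score were 1869 to 7191 bp wide, and 9 of their 10 nearest genes could be tested. Of these 4 rose and 5 fell in Bic/4AP against untreated, where 29.6% of all genes rose and 42.5% fell. So few genes cannot be compared with those shares. The highest, with a score of 3100 and 7191 bp, covered the starts of Srsf11, an SR splicing factor gene, and Lrrc40. Srsf11 had 42.7, 36.9 and 46.1 RPKM untreated, 26.4, 25.6 and 27.4 with TTX and 33.4, 32.8 and 40.5 with Bic/4AP. Untreated and Bic/4AP libraries overlapped (adjusted p = 0.0366, and 0.0617 without the filter on low values), and the TTX libraries lay below both. The second, with a score of 2361 and 6025 bp, lay at Dus4l, a tRNA dihydrouridine synthase gene, which was at 9.32 ± 2.08 untreated and 6.24 ± 1.57 with Bic/4AP with overlapping libraries (n = 3, limma adjusted p = 0.0241). The relative log2 change of Dus4l was -0.39 as deposited, -0.00 after quantile normalization (limma adjusted p = 0.758) and -0.03 after cyclic loess normalization (adjusted p = 0.945), so that it no longer passed. That of Srsf11 was -0.11 as deposited and -0.43 and -0.38 after them.

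The third region by score lay inside Nrg1, which encodes the growth factor neuregulin 1. Nrg1 had 7.43, 9.15 and 6.21 RPKM untreated, 12.4, 12.2 and 10.8 with TTX and 16.5, 16.7 and 17.6 with Bic/4AP. Its 3 groups did not overlap (adjusted p = 5.73e-06 for Bic/4AP against untreated). Prkar2a, a regulatory subunit of protein kinase A, rose from 29.5 ± 2.19 to 50.5 ± 0.797 RPKM (adjusted p = 2.16e-07), Pdcd6, a calcium-binding protein gene, from 34.1 ± 1.66 to 49.6 ± 1.13 (adjusted p = 7.77e-06) and Dnaja2, a co-chaperone gene, from 47.7 ± 2.73 to 59.4 ± 2.28 (adjusted p = 0.000315, all limma with n = 3). After quantile and cyclic loess normalization the relative log2 change of Dnaja2 turned from 0.44 to -0.10 and -0.06 (limma adjusted p = 0.299 and 0.212). That of Prkar2a went from 0.88 to 0.47 and 0.55 and that of Pdcd6 from 0.65 to 0.22 and 0.29, and both still passed. Igsf9b, an adhesion protein gene of inhibitory synapses, fell from 11.3 ± 0.902 to 6.07 ± 0.605 (adjusted p = 3.01e-05), Cwf19l2 from 15.3 ± 1.54 to 8.76 ± 1.06 (adjusted p = 3.68e-05) and Tlk2, a kinase of chromatin assembly, from 14.8 ± 1.45 to 10.3 ± 0.198 (adjusted p = 0.00028, all limma with n = 3). After the same normalizations Tlk2 no longer passed, with a relative log2 change of -0.35 as deposited and then -0.13 and -0.10 (limma adjusted p = 0.390 and 0.290). Igsf9b went from -0.67 to -0.31 with each of them and Cwf19l2 from -0.62 to -0.38 and -0.35, and both still passed. The region nearest to Lep, 78256 bp from its start, had Lep itself at 0.087 RPKM untreated and 0.475 with Bic/4AP, under the filter, so that it was not tested.

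Of the 5 genes with 2 regions, picked after they were seen, 4 rose and 1 fell, where 46.5% of all genes at 20 to 50 RPKM and 91.8% of those at 50 RPKM or more rose. Sik2 had 14.5, 17.7 and 15.6 RPKM untreated, 17.4, 18.5 and 17.6 with TTX and 34.9, 36.1 and 39.0 with Bic/4AP. The Bic/4AP libraries of Sik2 were above the other 6 (adjusted p = 8.07e-08). Glrb rose from 54.9 ± 2.68 to 82.7 ± 0.441 RPKM, Casd1 from 31.1 ± 3.19 to 41.7 ± 1.12 and Slc25a36 from 38.5 ± 0.706 to 50.3 ± 2.26 (adjusted p = 1.28e-06, 0.000150 and 2.52e-05). Utp3 was at 18.2 ± 1.4 RPKM untreated, 33.0 ± 1.24 with TTX and 14.7 ± 1.79 with Bic/4AP, where it fell with overlapping libraries (adjusted p = 0.0077).

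TTX, which silences such neurons, also moved many of the nearest genes. In TTX against untreated, 216 of 492 rose (43.9%), where 40.6% of all genes did, and 91 fell (18.5%), where 23.5% of all did, with a median log2 change of 0.14 against 0.13 for all genes. This balance moved with the scaling, to 176 rises and 165 falls after quantile normalization (37.3% and 31.9% of all genes), and turned after cyclic loess normalization, with 133 and 177 (30.8% and 35.4%). In Bic/4AP against TTX, 149 rose (30.3%), where 23.7% of all did, and 249 fell (50.6%), where 53.1% of all did. Here the normalizations gave 205 rises and 144 falls (33.7% and 36.2% of all genes) and 209 and 139 (34.7% and 35.7%), which turns the balance with both. The 3 comparisons share libraries. Of the 191 nearest genes that rose with Bic/4AP, 82 also rose with TTX, 35 fell and 74 did not pass. Of the 193 that fell, 73 rose with TTX, 45 fell and 75 did not pass. Of the 29 that rose by 2-fold or more with Bic/4AP, 16 also rose with TTX, 4 of them by 2-fold or more, and 26 were higher with Bic/4AP than with TTX. Such overlaps of calls between comparisons were not counted over all genes, so they describe the nearest genes without a background. H3K27ac was not measured with TTX in the samples used here.

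The same counts were made for the nearest genes of 2 other peak sets. For the gains at 0.20 or more, 97 of 230 tested genes rose (42.2%) and 75 fell (32.6%) in Bic/4AP against untreated, with 16 rises (6.96%) and 21 falls (9.13%) of 2-fold or more. For the low-methylation peaks in all 4 lists, 610 of 1411 rose (43.2%) and 467 fell (33.1%), with 24 rises (1.70%) and 115 falls (8.15%) of 2-fold or more. Rises of 2-fold or more were thus 5.89% of the genes nearest to the gained regions, 6.96% of those nearest to the gains at 0.20 or more and 1.70% of those nearest to peaks present in all lists, whose median level was 28.7 RPKM untreated. No test was made of these differences.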

How the data were processed

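The deposited expression values are RPKM per gene and library, made by the authors from poly(A)-selected, directionally prepared RNA per the labels' protocols; how reads were counted is not stated. For methylation the authors deposited 1 fraction per CpG, made after bisulfite treatment and post-bisulfite adaptor tagging per the labels, and without coverage. The peak lists give the authors' score for each peak of each sample, with at least 50 in every list, and, per the submitters' processing notes, were made with MACS 1.4.1 among the tools named and the mm10 build. Whether the input sample, which is not used here, entered peak calling is unknown.

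Regions were found by overlap of 1 bp, and methylation is the unweighted mean over CpGs listed in all 3 libraries. Transcription starts and genes come from RefSeq tables of GRCm38.p6, and the nearest gene has its start closest to the peak's centre. Coding genes without an entry in the table of starts were placed by both their ends. For RNA, genes reaching 1 RPKM in 3 or more libraries were fitted on the log2(RPKM + 1) scale with limma (3.58.1, R 4.3.3) and a trend in the prior variance. All 9 libraries entered 1 fit, with Benjamini-Hochberg adjustment over 14801 genes. The fit was tested on simulated data in which few genes changed and the groups did not differ in depth or scale. That test does not bear on the effects of scaling described above. Reads per library were recovered from the steps of the RPKM values, which came out whole within 0.05 reads for 19588 of 19588 genes above 0 in at least 3 libraries. Intervals cover counting error over regions alone.

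Named genes are the nearest genes of the 10 regions with the highest score, the 15 largest rises and the 8 largest falls among nearest genes that passed, reached a mean of 5 RPKM and did not overlap, members of 8 gene lists, and 8 activity genes given whether or not a region lay nearby. The regions and lists were chosen with earlier results of these data known. Genes with 2 regions and those named for methylation differences were added after their values were seen. Alternatives for the RNA counts were the pseudocount, the filter, 2 normalizations, fewer libraries, a replicate block, other gene assignments and stricter region rules.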

Additional observations from a re-analysis of the deposited data

How the results depend on the processing

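The counts of nearest genes in Bic/4AP against untreated, 191 rises and 193 falls, stayed within 1.5 times of these under the alternatives tried, except with quantile normalization, with 125 falls and a median log2 change of 0.0723, with all genes within 50 kb in place of the nearest (381 rises, 570 falls, median -0.14), and with 1 H3K27ac pair alone. Without the first pair 2874 regions met the rule, 79.9% within 1 kb of a start, with 842 rises and 874 falls. Without the second pair 3094 did, 86.2% within 1 kb, with 1051 rises and 928 falls. The share at a start was 94.1% with methylation below 0.10 and 91.4% with a window of 500 bp. In TTX against untreated, quantile normalization gave 176 rises and 165 falls, and cyclic loess normalization 133 and 177, where the balance turned. In Bic/4AP against TTX it turned with both, to 205 rises and 144 falls and to 209 and 139. The cause of these shifts was not tested.

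Leaving out 1 library gave 180 to 206 rises and 178 to 196 falls in Bic/4AP against untreated, 186 to 240 and 75 to 95 in TTX against untreated, and 140 to 147 and 228 to 242 in Bic/4AP against TTX. With the replicate block the counts were 194 rises and 192 falls in Bic/4AP against untreated. The correlation of deviations between same-numbered Bic/4AP and untreated libraries was -0.0076 to 0.0182, and none of the 3 correlated best with its own number. In TTX against untreated number 2 did (0.0435 against 0.00708). In Bic/4AP against TTX numbers 2 and 3 did (0.0123 against -0.00366 and 0.0427 against -0.000467), and the remaining numbers did not. Whether same-numbered libraries share a culture cannot be told from correlations this low. Of the named genes, Dnaja2 reversed to -0.038 and -0.0471 after quantile and cyclic loess normalization and Dus4l to 0.0576 after quantile normalization, log2 changes from which the median of all genes was not subtracted. Tlk2 and Dus4l no longer passed with either normalization, and Srsf11 and Dus4l not without certain libraries.

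Added after the data were seen, leaving out regions with an untreated peak within 1 kb left 504 regions, with 176 rises and 185 falls. Starts of known strand gave 161 and 168, and all genes starting within 1 kb gave 210 and 219. Peak lists record presence at a threshold, so a gain can be a small difference in signal, which these lists cannot show. Methylation has 1 library per treatment and unknown depth, and RNA depth was lowest with Bic/4AP.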

Other observations

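Zinc finger genes whose symbols begin with Zfp, Zbtb, Zscan or Zkscan, a group picked after its values were seen, were nearest to 15 of the gained regions. All 15 were tested in Bic/4AP against untreated, and 10 fell while 0 rose. Over all genes tested, 256 of 401 such genes fell and 36 rose, so that the falls were found among zinc finger genes with and without a gained region.

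The 34 replicated H3K27ac gains with fewer than 3 CpGs to average had a median width of 791.5 bp and no start within 1 kb, with 17 inside genes and 17 between them. Of their 22 tested nearest genes, 14 rose and 4 fell in Bic/4AP against untreated, with a median log2 change of 0.38, where 29.6% of all genes rose and 42.5% fell. In TTX against untreated 4 rose and 9 fell, where 40.6% of all genes rose and 23.5% fell.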
